A study of Capra hircus with 9 samples.

Results

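The mature miRNAs of the miR-30b, miR-30c, miR-30d and miR-30e hairpins were followed in the mammary gland of Laoshan dairy goats across 3 stages of the lactation cycle. The members were all entries of the deposited count table whose name begins with chi-miR-30b, chi-miR-30c, chi-miR-30d or chi-miR-30e, on either arm of the hairpin. The 7 entries so named, of 1359 in the table, were chi-miR-30b-5p, chi-miR-30b-3p, chi-miR-30c-5p, chi-miR-30c-3p, chi-miR-30d-3p, chi-miR-30e-5p and chi-miR-30e-3p, and chi-miR-30d-5p was not analysed here. All 7 passed the filter on low counts (at least 0.5 CPM, counts scaled to a common library total, in at least 3 libraries), which left 696 miRNAs for testing.

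The small RNA libraries represented 3 stages. Late lactation (LL) was sampled 240 days postpartum, the dry period (DP) followed at 300 days postpartum, and late gestation (LG) was taken 140 days after mating. Each stage had 3 goats with 1 library each, all healthy does of about 4 years in the third parity, and different goats stood for the stages, so that no animal was followed over time. Whole mammary tissue was sequenced, and in such bulk samples fewer cells of a type and less miRNA per cell cannot be told apart. The comparison of DP with LG sets the resting gland against the gland preparing for milk, DP vs. LL sets it against the gland at the end of milking, and LL vs. LG sets the end of one lactation against the approach of the next.

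A mature miRNA is cut from one arm (5p or 3p) of a hairpin precursor and guides repression of mRNAs that pair with its seed, the bases near its 5′ end. The 5p miRNAs of the miR-30 family share a single seed and differ in a few bases elsewhere, and the 3p miRNAs are products of the opposite arm with another seed. The family is abundant in epithelia, and raised miR-30b in the mammary gland of transgenic mice is known to disturb lactation and delay involution.

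On the goat assembly ARS1.2 the hairpins lie in pairs. MIR30E (chr3:15365532-15365637) and MIR30C (chr3:15368653-15368757) are 3015 bases apart, and both fall within the protein-coding gene NFYC, which encodes a subunit of the CCAAT-binding factor NF-Y. MIR30B (chr14:74941328-74941416) and MIR30D (chr14:74945777-74945857) are 4360 bases apart within a long non-coding RNA gene, LOC108637533. The other hairpins of the family, MIR30F (chr14:92162547-92162630) and MIR30A (chr14:92200094-92200200), lie 37463 bases apart on the same chromosome as MIR30B and MIR30D, 17216689 bases from MIR30D, and overlap no other annotated gene. Whether MIR30E and MIR30C are exonic or intronic in NFYC was not analysed here.

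The libraries held 13672653 to 34378995 counts. A single miRNA, chi-miR-148a-3p, took 48.4% to 59.4% of the counts in LL, 8.81% to 10.8% in DP and 39.4% to 44.6% in LG. Shares of all counts and levels scaled by the trimmed mean of M-values (TMM) gave different values, and the part of chi-miR-148a-3p in that gap was not tested. Over all 696 miRNAs, the median log2 fold change after TMM scaling in DP vs. LG was 0.18, against −0.02 with scaling by library size alone. It was 0.12 against 0.49 in DP vs. LL, and 0.17 against −0.42 in LL vs. LG.

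Levels are given as TMM-scaled CPM, without correction for length. In LL the most abundant member was chi-miR-30c-5p, which ranked 34th of the 696 miRNAs by mean level, followed by chi-miR-30e-5p and chi-miR-30b-5p, at ranks 55 and 56. The 3p miRNAs lay lower, from chi-miR-30e-3p at rank 95 through chi-miR-30d-3p at 218 and chi-miR-30b-3p at 313 to chi-miR-30c-3p at 341. Counting error was at most 1.61% of the count for any of the 5p miRNAs and chi-miR-30e-3p, which is less than most of the spreads between goats given here but close to the spread of chi-miR-30b-5p in LG (615 ± 6.18 CPM, SD, n = 3). It reached 6.23% for chi-miR-30d-3p, 11.1% for chi-miR-30b-3p and 12.4% for chi-miR-30c-3p, whose lowest count was 65.

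**Figure D1:**
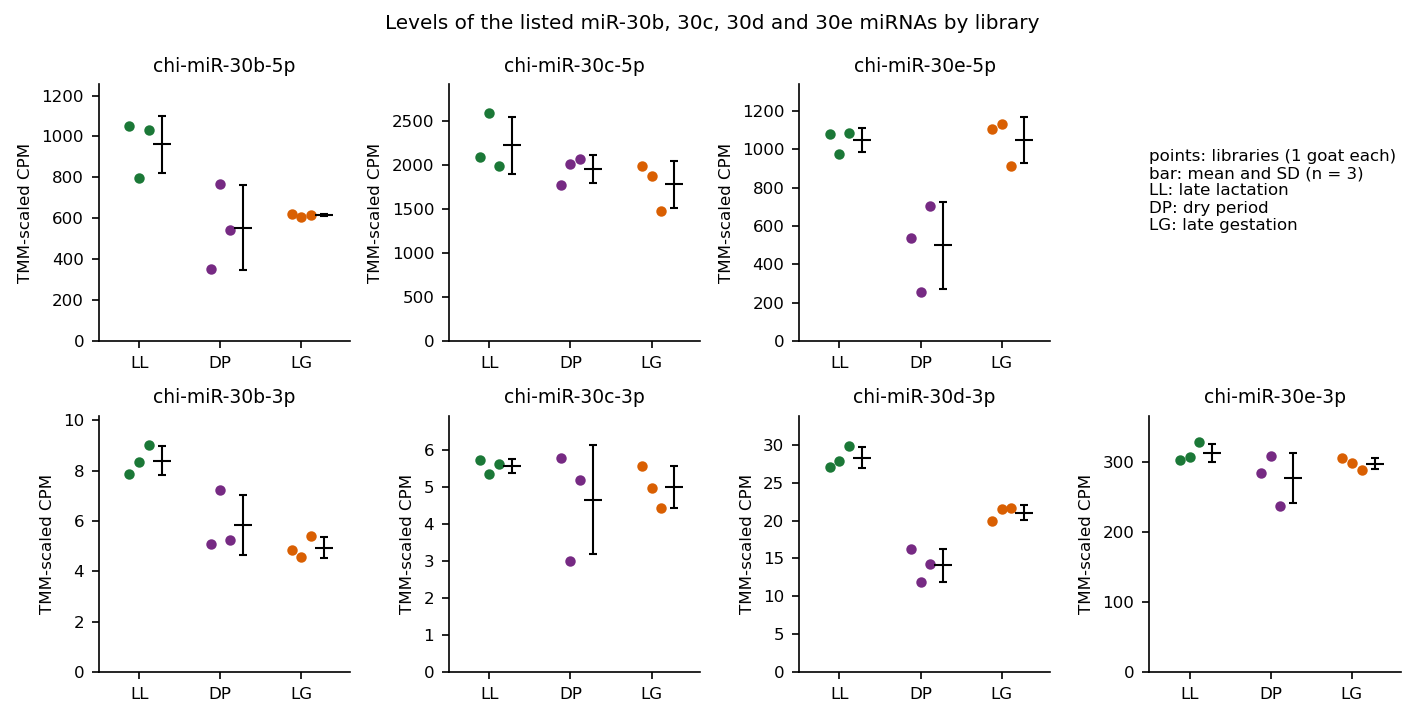
Level of each of the 7 miRNAs (TMM-scaled CPM, linear axes from 0) in LL, DP and LG, with 1 point per library and the mean ± SD (n = 3) beside them. The 3 DP libraries lie below all LL and LG libraries for chi-miR-30e-5p and chi-miR-30d-3p, while the stages overlap for chi-miR-30c-5p, chi-miR-30c-3p and chi-miR-30e-3p.

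Among the members, chi-miR-30e-5p fell in DP against both other stages and chi-miR-30d-3p fell in DP against LL, while chi-miR-30c-5p stayed within overlapping ranges at all 3 stages. A DE-miRNA had to pass 0.05 in edgeR's quasi-likelihood test after Benjamini-Hochberg adjustment, with a change of more than 1 on the log2 scale in either direction. In DP vs. LG, 1 of the 7 members was a DE-miRNA, lower in DP, where 31.5% of all 696 were called and 9.91% were called lower. Those calls were split into 150 higher and 69 lower with TMM, 116 and 85 with library size alone and 104 and 109 without a filter, and without DP replicate 1 the lower calls were 114 of 687 tested. The higher calls were 95, 94 and 87 without LG replicate 1, 2 and 3. In DP vs. LL, 2 of the 7 were DE-miRNAs, both lower in DP, against 26.7% of all miRNAs called and 11.6% called lower. In LL vs. LG none was called by edgeR, DESeq2 or limma-voom, against 12.8% of all miRNAs by edgeR, and 2 members had an unadjusted p under 0.05, against 33.0% of all. After TMM scaling the stages did not overlap for 2 of the 7 members in DP vs. LG (44.7% of all miRNAs), for 4 in DP vs. LL (41.2%), and for 3 when LL was compared with LG (48.4%). Their median log2 fold change was −0.10 when DP was compared with LG, −0.52 when it was compared with LL, and 0.32 between LL and LG with TMM scaling. With library size alone these medians were −0.32, −0.17 and −0.24, so that the direction between LL and LG turned, as it did without LG replicate 3 (−0.0105). Without 1 library the members' median was −0.34 to −0.24 in DP vs. LG and −0.0105 to 0.27 in LL vs. LG. Both main values lay above these ranges. So did the medians of all miRNAs, at 0.18 and 0.17, against at most 0.0493 and 0.10 without 1 library. The cause was not tested. The 3 comparisons share libraries and are not independent of each other.

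chi-miR-30e-5p had its lowest levels in DP. It was 1080, 976 and 1086 CPM in LL, 537, 254 and 707 CPM in DP, and 1106, 1133 and 911 CPM in LG. Every DP library lay below every LL and LG library, DP replicate 2 was the lowest of all, and LL and LG overlapped after TMM scaling. It fell 2.10-fold in DP vs. LG (log2 fold change −1.07, SE 0.32, adjusted p = 0.0235) and 2.10-fold in DP vs. LL (log2 fold change −1.07, SE 0.32, adjusted p = 0.0294), whereas LL vs. LG gave 0.00 with a 95% interval of −0.71 to 0.70 (adjusted p = 0.995). With library size alone LL vs. LG gave −0.59 (adjusted p = 0.276), and the LL libraries lay below the LG libraries without overlap. The size of the decrease rested partly on DP replicate 2, without which the log2 fold change was −0.86 in DP vs. LG (adjusted p = 0.0463) and −0.68 in DP vs. LL (adjusted p = 0.101). Without DP replicate 3 it was larger, at −1.68 in DP vs. LG (adjusted p = 0.00338) and −1.49 in DP vs. LL (adjusted p = 0.00567). The call in DP vs. LG was also lost without LG replicate 1 or 2 (adjusted p = 0.0709 and 0.0694). The call in DP vs. LL was lost without any one of the 3 LL or 3 LG libraries, with log2 fold changes from −1.11 to −0.93 and adjusted p-values from 0.0658 to 0.142, and with scaling by library size alone (−0.67, adjusted p = 0.163).

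The other arm of this hairpin was not called. chi-miR-30e-3p was at 303, 307 and 327 CPM in LL, 284, 308 and 237 CPM in DP, and 305, 298 and 289 CPM in LG. The 3 stages overlapped. The difference between DP and LG was −0.10 on the log2 scale (95% interval −0.55 to 0.34, adjusted p = 0.720), and that between DP and LL was −0.18 (−0.62 to 0.27, adjusted p = 0.532).

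The ratio of both arms, taken within a library and hence free of any scaling between libraries, compares them directly. Counts of chi-miR-30e-5p per count of chi-miR-30e-3p were 3.57, 3.18 and 3.32 in LL, 1.89, 0.825 and 2.98 in DP, and 3.63, 3.80 and 3.15 in LG. All DP libraries lay below the others, and in DP replicate 2 the 3p arm outnumbered the 5p arm. The log2 ratio was 1.75 ± 0.08 (SD, n = 3) in LL, 0.74 ± 0.94 in DP and 1.81 ± 0.14 in LG. An exact permutation test of the F statistic over all 280 assignments of the 9 libraries to 3 stages gave p = 0.0179, or 0.0625 after Benjamini-Hochberg adjustment over the 5 hairpins of the family with both arms in the table, so that the difference did not pass the correction. Without LL replicate 2 or LG replicate 2 the exact permutation p was 0.0643, and leaving out LL replicate 3, LG replicate 1 or LL replicate 1 gave 0.0571, 0.0607 and 0.05.

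Neither the arms of miR-30b nor those of miR-30c passed the test. For miR-30b every DP library lay below every LG library and LL overlapped both, while all stages overlapped for miR-30c. The log2 ratio of 5p to 3p counts of miR-30b was 6.83 ± 0.24 in LL, 6.51 ± 0.35 in DP and 6.96 ± 0.11 in LG (n = 3 each, exact permutation p = 0.146, adjusted p = 0.244). For miR-30c it was 8.63 ± 0.25, 8.77 ± 0.58 and 8.48 ± 0.09 (n = 3 each, exact permutation p = 0.732, adjusted p = 0.732). The hairpin miR-30f had a mean of 27.4 counts of the 5p arm per count of the 3p arm in DP, against 14.3 in LL and 12.7 in LG, and did not pass the correction either (geometric means, exact permutation p = 0.025, adjusted p = 0.0625). The remaining hairpin in the adjustment, miR-30a, did not pass (exact permutation p = 0.211, adjusted p = 0.263).

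chi-miR-30c-5p, from the hairpin beside miR-30e on chromosome 3, had overlapping levels at all stages and was not called. It was at 2089, 2596 and 1987 CPM in LL, 1773, 2014 and 2072 CPM in DP, and 1989, 1875 and 1483 CPM in LG. LL replicate 2 was the highest and LG replicate 3 the lowest of the 9 libraries. The log2 fold change was 0.13 in DP vs. LG (95% interval −0.32 to 0.58, adjusted p = 0.676), a direction that turned under 8 of 10 alternatives, among them library size alone (−0.08) and DESeq2 (−0.08). Without 1 library it was −0.15 to 0.0848, below the main value in every fit. It was −0.19 in DP vs. LL (−0.64 to 0.27, adjusted p = 0.518), turning to 0.16 with library size alone, and 0.32 in LL vs. LG (−0.13 to 0.77, adjusted p = 0.313), turning to −0.24 with library size alone.

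Its partner arm, chi-miR-30c-3p, had the lowest mean level of the members in LL and DP and lay close to chi-miR-30b-3p in LG. It was at 5.73, 5.35 and 5.61 CPM in LL, 5.78, 2.99 and 5.19 CPM in DP, and 5.56, 4.98 and 4.44 CPM in LG. Except for DP replicate 2, all libraries lay in a narrow range. No comparison was called, with adjusted p-values from 0.570 to 0.832.

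Within a library, chi-miR-30e-5p shifted against its neighbour chi-miR-30c-5p. Counts of chi-miR-30e-5p per count of chi-miR-30c-5p were 0.517, 0.376 and 0.547 in LL, 0.303, 0.126 and 0.341 in DP, and 0.556, 0.604 and 0.614 in LG. None of the stages overlapped, with DP the lowest and LG the highest. The log2 ratio was −1.08 ± 0.29, −2.09 ± 0.78 and −0.76 ± 0.08 (SD, n = 3), and the exact permutation p was 0.00357, the smallest that 280 assignments allow (0.00429 after adjustment over 6 ratios between members of the family). DP lay 2.51-fold below LG and 2.01-fold below LL, while an exact permutation test between a single pair of stages cannot go below p = 0.1. Without LG replicate 2 or 3 the exact permutation p over 3 stages rose to 0.05. The 3p miRNAs of the same hairpins did not pass, with log2 ratios of chi-miR-30e-3p to chi-miR-30c-3p of 5.81 ± 0.08, 5.94 ± 0.65 and 5.90 ± 0.12 (n = 3 each, exact permutation p = 0.979). That value turned on DP replicate 2, at 103 counts per count against 49.3 and 45.7 in the other DP libraries, and without it the exact permutation p was 0.0321.

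**Figure D2:**
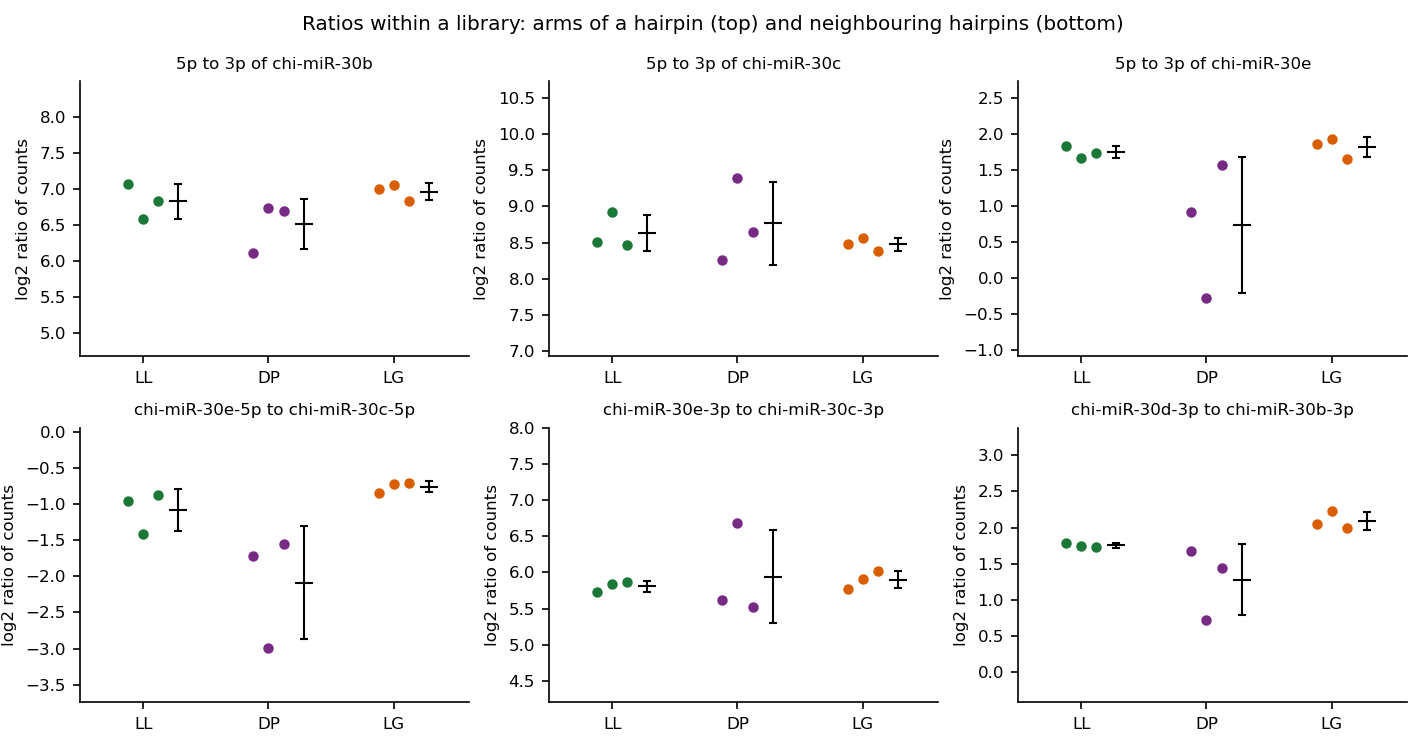
Log2 ratios of counts within each library (y axis, each panel spanning the same number of log2 units) for the arms of miR-30b, miR-30c and miR-30e (top) and for members of neighbouring hairpins (bottom), with 1 point per library and mean ± SD (n = 3). The ratio of chi-miR-30e-5p to chi-miR-30e-3p and to chi-miR-30c-5p was lowest in DP, where DP replicate 2 lay farthest down.

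The hairpins miR-30b and miR-30d also lie side by side. chi-miR-30d-3p, the arm of miR-30d analysed here, was at 27.1, 27.9 and 29.8 CPM in LL, 16.2, 11.9 and 14.2 CPM in DP, and 19.9, 21.6 and 21.6 CPM in LG. After TMM scaling it was the only member whose 3 stages all stood apart, highest in LL and lowest in DP, although its order between LL and LG turned with library size alone (log2 fold change LL vs. LG 0.43 with TMM, −0.16 with library size). It fell 2.00-fold in DP vs. LL (log2 fold change −1.002, SE 0.25, adjusted p = 0.0121), at the very edge of the fold limit. Library size alone gave −0.62 (adjusted p = 0.139). Without DP replicate 2 (−0.85), LL replicate 1 (−0.95), LL replicate 3 (−0.998) or any one LG library (−0.97) the decrease was under the fold limit, with adjusted p-values from 0.0273 to 0.0576. In DP vs. LG the log2 fold change was −0.58 (95% interval −1.12 to −0.03) and did not pass (adjusted p = 0.0930). The adjusted p was under 0.05 in 6 of 10 alternatives, among them DESeq2 (log2 fold change −0.79, adjusted p = 0.000569), and in all 10 the change was under the fold limit (−0.94 to −0.58). In LL vs. LG the adjusted p was 0.259.

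The abundant arm of its neighbour, chi-miR-30b-5p, was highest in LL after TMM scaling. It was at 1053, 798 and 1031 CPM in LL, 351, 767 and 545 CPM in DP, and 620, 608 and 618 CPM in LG. The LL libraries lay above all others, the LG libraries were nearly equal, and the DP libraries spread on both sides of LG, with DP replicate 2 the highest of them. The log2 fold change of −0.79 in DP vs. LL did not pass (SE 0.28, 95% interval −1.41 to −0.18, adjusted p = 0.0518), nor did that of 0.64 in LL vs. LG (0.03 to 1.25, adjusted p = 0.139, or 0.04 with library size alone) or of −0.15 in DP vs. LG (−0.76 to 0.46, adjusted p = 0.708). In DP vs. LL the adjusted p was under 0.05 in 5 of 10 alternatives (0.0301 to 0.0471, DESeq2 and limma-voom among them), with the change under the fold limit in all 10 (−0.91 to −0.45). Without DP replicate 2, DP vs. LL passed both limits (−1.01, adjusted p = 0.0445). DP replicate 2 was the lowest DP library for chi-miR-30e-5p and the highest for chi-miR-30b-5p.

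The other arm, chi-miR-30b-3p, was at 7.85, 8.32 and 9.01 CPM in LL, 5.08, 7.22 and 5.23 CPM in DP, and 4.84, 4.58 and 5.42 CPM in LG. After TMM scaling the LL libraries lay above the rest, as for the 5p arm, and DP overlapped LG, whereas with library size alone all 3 stages overlapped. It was not called, with log2 fold changes of 0.76 in LL vs. LG (SE 0.29, adjusted p = 0.0937, or 0.18 with library size alone), −0.52 in DP vs. LL (adjusted p = 0.188) and 0.24 in DP vs. LG (adjusted p = 0.580). The last of these turned to −0.06 in libraries without chi-miR-148a-3p.

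The 3p arms of these neighbours kept different proportions at the stages. Counts of chi-miR-30d-3p per count of chi-miR-30b-3p were 3.45, 3.35 and 3.31 in LL, 3.19, 1.65 and 2.72 in DP, and 4.12, 4.71 and 3.99 in LG. The stages did not overlap, with the order LG, LL and DP, and DP replicate 2 was again the lowest. The log2 ratios of 1.75 ± 0.03, 1.28 ± 0.50 and 2.09 ± 0.13 (SD, n = 3) gave an exact permutation p of 0.00357 (adjusted p = 0.00429), and leaving out 1 library at a time gave 0.00357 to 0.0393. DP lay 1.76-fold below LG and 1.39-fold below LL. The counting error of chi-miR-30b-3p, 6.47% to 11.1%, enters these ratios, and the LL ratios differed by less than it. The small SD in LL therefore cannot be taken as the spread between goats. This ratio was not among those planned.

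**Figure D3:**
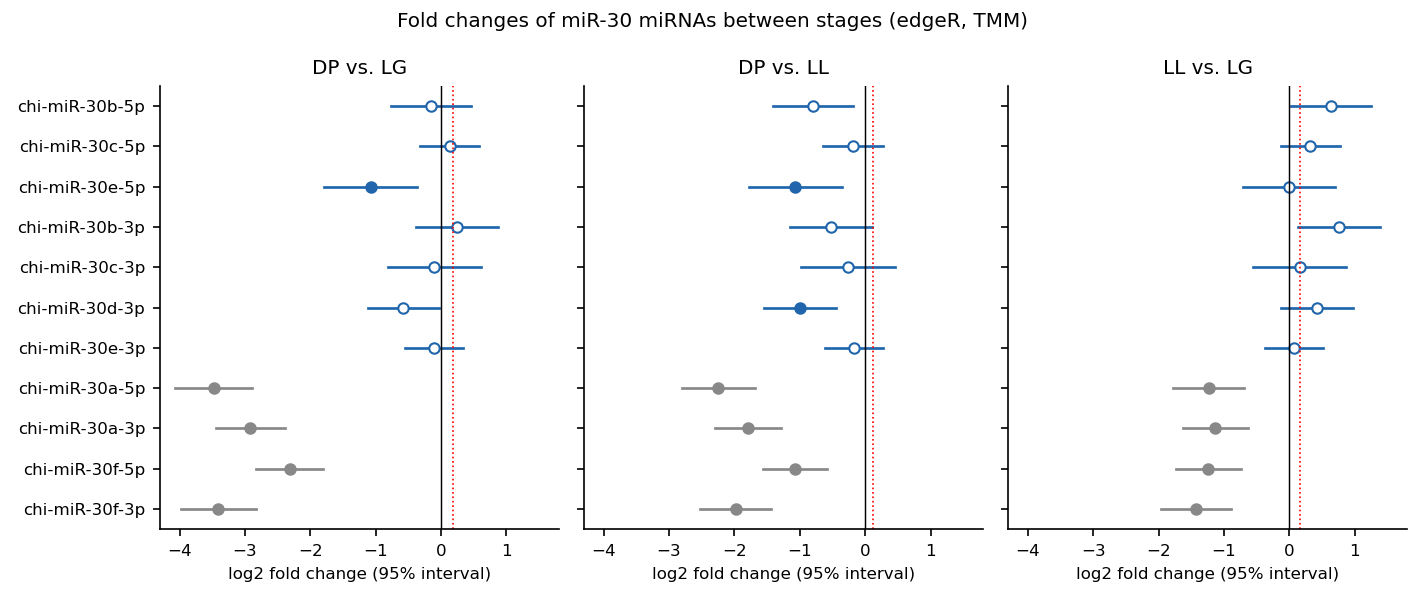
Log2 fold changes (x axis, edgeR with TMM) and 95% intervals of the 7 members (blue) and of the 4 miR-30a and miR-30f miRNAs (grey) in the 3 comparisons, with filled points for DE-miRNAs and a dotted red line at the median of all 696 miRNAs. The members lie between −1.07 and 0.76, and all 4 miR-30a and miR-30f miRNAs are called in each comparison.

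Of the rest of the family, chi-miR-30a-5p was at 46850 ± 4104 CPM in LG (SD, n = 3), 19969 ± 2786 in LL and 4215 ± 1357 in DP. Both arms of miR-30a and of miR-30f were DE-miRNAs in all 3 comparisons. Their log2 fold changes ranged from −3.47 to −2.32 between DP and LG, from −2.24 to −1.08 between DP and LL, and from −1.43 to −1.13 between LL and LG. Only the difference of 3 members, all 5p miRNAs, from chi-miR-30a-5p was tested, as a ratio within a library. The log2 ratio of chi-miR-30c-5p to chi-miR-30a-5p was −3.17 in LL, −1.07 in DP and −4.72 in LG, which placed DP 12.6-fold above LG and 4.28-fold above LL. For chi-miR-30b-5p the ratio was −4.38, −2.95 and −6.25, with DP 9.81-fold above LG and 2.69-fold above LL. For chi-miR-30e-5p it was −4.24, −3.16 and −5.48, with DP 5.02-fold above LG and 2.13-fold above LL. In each of these 3 ratios the stages did not overlap, and the exact permutation p was 0.00357 (adjusted p = 0.00429, n = 3 per stage).

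The seed-sharing 5p miRNAs of the family differed between stages in both amount and make-up. The 5 of them in the table (miR-30a, 30b, 30c, 30e and 30f) together held 2.01% ± 0.0572 of all counts in LL (SD, n = 3), 0.792% ± 0.164 in DP and 6.32% ± 0.439 in LG. Of that pool, chi-miR-30b-5p, chi-miR-30c-5p and chi-miR-30e-5p made up 16.2%, 19.6% and 15.2% in LL, 41.7%, 42.9% and 34.8% in DP, and 6.45%, 7.39% and 5.90% in LG. Every DP library had the larger share, and no stages overlapped (exact permutation p = 0.00357, also without any 1 library). This share was chosen after the values had been seen, and it leaves out chi-miR-30d-5p.

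Most of that share belonged to chi-miR-30c-5p, with 9.0% of the pool in LL, 26.0% in DP and 3.40% in LG. chi-miR-30b-5p held 3.81%, 7.35% and 1.18%, and chi-miR-30e-5p held 4.18%, 6.47% and 2.01%. The share of chi-miR-30a-5p moved the other way, at 79.2%, 54.3% and 89.2%, while chi-miR-30f-5p held 3.8%, 5.94% and 4.2%. The 5p sequences of the family are close to each other, and how the authors' counting placed reads that match several of them was not tested. Apart from that, none of the members had the same counts as another entry of the table.

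**Figure D4:**
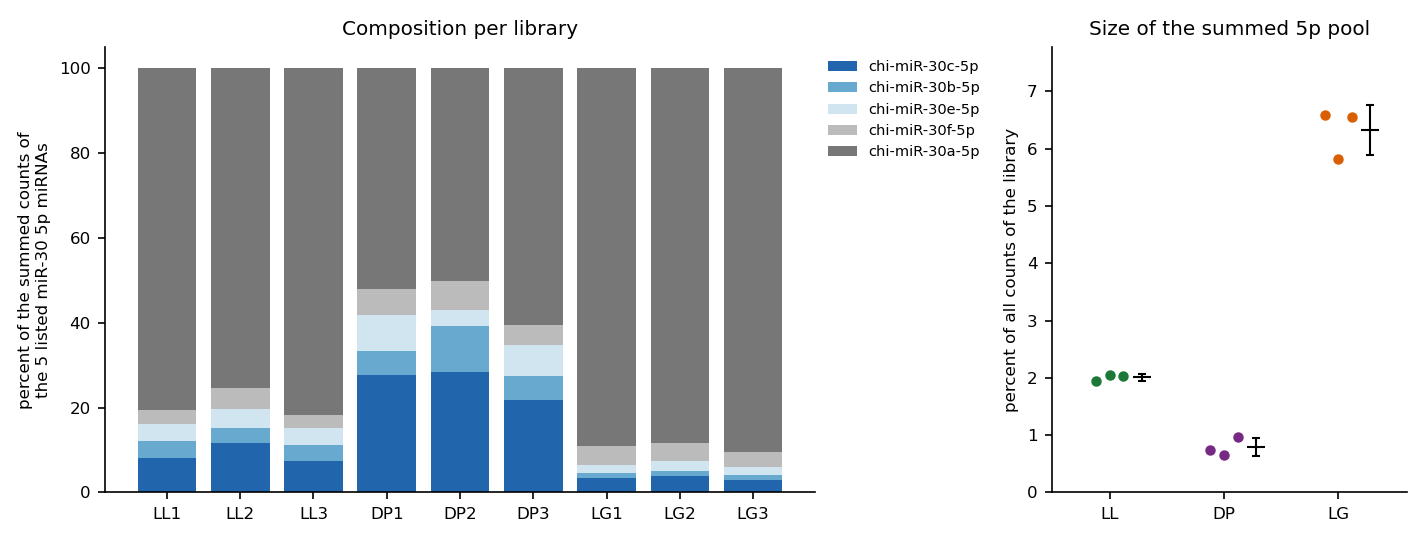
Left, percent of the summed counts of the 5 listed miR-30 5p miRNAs (y axis) contributed by each, as stacked bars for the 9 libraries. Right, the size of that pool as a percent of all counts of the library, with 1 point per library and mean ± SD (n = 3), where the pool is smallest in DP and the blue members take their largest share of it.

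Summed over both arms, the 7 members held 0.340%, 0.434% and 0.337% of all counts in LL, 0.346%, 0.313% and 0.367% in DP, and 0.464%, 0.469% and 0.428% in LG. DP lay below LG in every library and overlapped LL. The exact permutation p over the 3 stages was 0.0607, and 0.0286 without LL replicate 2. With the total taken without chi-miR-148a-3p, the shares were 0.799% ± 0.0706 in LL, 0.378% ± 0.03 in DP and 0.791% ± 0.0750 in LG (SD, n = 3, exact permutation p = 0.025). As TMM-scaled CPM the sums were 4587 ± 122, 3308 ± 310 and 3776 ± 388 (exact permutation p = 0.0107). DP had the lowest mean under all 3 denominators, whereas the order of LL and LG depended on the denominator.

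**Figure D5:**
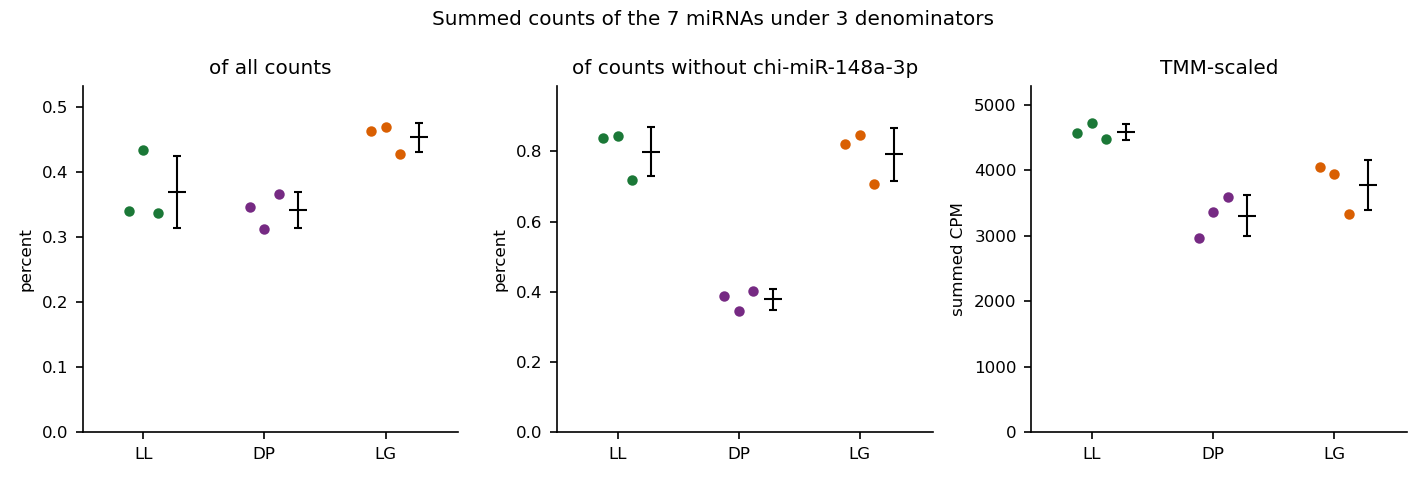
Summed level of the 7 members in LL, DP and LG under 3 denominators (y axes from 0), as percent of all counts, as percent of counts without chi-miR-148a-3p, and as TMM-scaled CPM, with 1 point per library and mean ± SD (n = 3). DP has the lowest mean in each panel, and LL moves from below LG to above it.

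Within that sum, chi-miR-30c-5p made up 44.4% to 55.0% in LL, 57.8% to 59.9% in DP and 44.5% to 49.1% in LG. chi-miR-30e-5p made up 20.7% to 24.3%, 7.54% to 19.7% and 27.3% to 28.7%, a set of ranges that did not overlap. chi-miR-30b-5p ranged from 11.8% to 23.1% over all 9 libraries, with overlapping stages. The 3 scarce 3p miRNAs of miR-30b, miR-30c and miR-30d each stayed under 1% of the sum.

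Markers of cell types also differed between the stages. Of 8 tested epithelial miRNAs (the miR-200 family and the miR-183 cluster), 3 were lower in DP vs. LG and 5 lower and 1 higher in DP vs. LL. The list was split, since all miRNAs called lower were of the miR-200 family and the one called higher, chi-miR-183, was of the miR-183 cluster. With TMM scaling the log2 fold changes of that cluster in both comparisons were 0.95 and 0.71 for chi-miR-182, 0.89 and 1.18 for chi-miR-183, and 0.27 and 0.59 for chi-miR-96, and their signs under other scalings were not tested. The summed level of the 8 was 14060 to 22387 CPM in DP, against 35327 to 43021 CPM in LL and 34934 to 38645 CPM in LG. Of 5 miRNAs of stroma, smooth muscle and myoepithelium, 3 were higher in DP in both comparisons (summed level 47519 to 152588 CPM in DP, 77791 to 125732 CPM in LL and 57436 to 65606 CPM in LG). The summed level did not follow these calls, since its DP range covered those of LL and LG. Its median was 67665 CPM in DP, 83372.5 CPM in LL and 65216 CPM in LG. Of 5 striated muscle miRNAs, 2 were higher in DP vs. LG and 1 in DP vs. LL (971 to 3445 CPM in DP, 720 to 932 CPM in LL and 419 to 530 CPM in LG). Of 5 listed leukocyte miRNAs, 3 were found and tested. All 3 were higher in DP vs. LG, 1 was higher in DP vs. LL and 2 were higher in LL vs. LG (767 to 1935 CPM in DP, 581 to 740 CPM in LL and 243 to 360 CPM in LG). Of 3 red blood cell miRNAs 1, and of 2 endothelial miRNAs 1, were higher in DP vs. LG and none in DP vs. LL. No marker of the other lists was called in LL vs. LG. No listed marker was at 0 in any library, and the part of cell composition in the differences between stages was not tested.

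Each 5p member was compared with 120 other known miRNAs of at least 100 CPM by the root mean square difference of centred log2 levels over the 9 libraries. The most similar to chi-miR-30e-5p were chi-miR-423-3p (0.37), chi-miR-148b-3p (0.40) and chi-miR-409-3p (0.41), where the median over all 120 was 1.052. chi-miR-423-3p averaged 1683 CPM in LL, 502 CPM in DP and 1383 CPM in LG. For chi-miR-30b-5p they were chi-miR-328-3p (0.27), chi-miR-660 (0.27) and chi-miR-148b-3p (0.38), with a median of 0.84, and for chi-miR-30c-5p they were chi-miR-224-5p (0.23), chi-miR-320-3p (0.24) and chi-let-7a-3p (0.27), with a median of 0.63. These values describe the libraries and carry no test.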

How the data were processed

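The deposited values were read counts per mature miRNA in small RNA libraries of 9 goats. Per their methods the authors trimmed reads with Trimmomatic, aligned them to goat assembly ARS1.2 with miRDeep2 and counted known (miRBase) and predicted miRNAs with its quantifier; the submitters' processing notes name FastQC 0.11.9, cutadapt 4.2 and Bowtie 1.1.1. No normalization was applied. In LL replicate 3 the authors deposited non-integer values for 2 predicted miRNAs, so that column was read as estimated counts and rounded. Totals were 13672653 to 34378995 counts per library. Counting errors are Poisson and cover counting error only, since reads carried no molecular identifiers.

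Differential expression was tested with edgeR 4.0.16 (R 4.3.3; glmQLFit, glmQLFTest, TMM) in 1 fit of all 9 libraries, on the 696 miRNAs that reached 0.5 CPM in 3 or more libraries, and p-values were adjusted over all of them. The standard error was the absolute log2 fold change divided by the square root of F. Within-library ratios and shares were tested with exact permutation tests in Python 3.11.15. Over 3 stages, p was the part of 280 assignments of libraries with an F statistic at least as large as observed (smallest p 0.00357). Pairs of stages were tested with 2-sided exact permutation of the difference of means (smallest p 0.1). The procedure was tested on simulated data.

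Named miRNAs were the members, the miR-30a and miR-30f miRNAs, chi-miR-148a-3p and, for each 5p member, the 3 closest miRNAs in pattern. Members, marker lists and tests were chosen with earlier results of these data known. A planned ratio with chi-miR-30d-5p, not analysed here, was replaced by ratios of 3p miRNAs. Other settings tried were limma-voom (limma 3.58.1), DESeq2 1.42.0, other scalings and filters, only 2 stages in the fit, a replicate block and leaving out each library. Replicate numbers are labels of goats, and p-values set differences between stages against the spread between these goats.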

Additional observations from a re-analysis of the deposited data

How the results depend on the processing

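With 3 goats per stage, differences near the fold limit cannot be settled. Under 10 alternatives the members called were 1 in DP vs. LG except 0 with only the 2 stages compared (chi-miR-30e-5p −1.19, adjusted p = 0.0586), 2 in DP vs. LL except 0 with library size only and 1 with only the 2 stages compared (chi-miR-30e-5p −1.12, adjusted p = 0.0691), and 0 throughout in LL vs. LG. Leaving out each library gave 0 to 1, 0 to 2 and 0 to 0 members. The exact permutation p of the summed share was 0.0607, with 0.025 without chi-miR-148a-3p, 0.0107 as TMM-scaled CPM and 0.0286 to 0.111 without 1 library. Without 1 library, exact permutation p-values spanned 0.107 to 0.379 for the arms of miR-30b, 0.143 to 0.879 for miR-30c and 0.0179 to 0.0643 for miR-30e, 0.00357 to 0.05 for chi-miR-30e-5p to chi-miR-30c-5p, 0.0321 to 0.989 for chi-miR-30e-3p to chi-miR-30c-3p, 0.00357 to 0.0393 for chi-miR-30d-3p to chi-miR-30b-3p and 0.00357 to 0.00714 for chi-miR-30e-5p to chi-miR-30a-5p. Directions reversed only for values that were not called, and the cause was not tested. In DP vs. LG, chi-miR-30b-3p gave −0.13 with at least 10 counts in every library, −0.13 without a filter and −0.0647 without chi-miR-148a-3p (−0.0613 to 0.15 without 1 library). chi-miR-30c-5p gave, in the same comparison, −0.23 with at least 10 counts, −0.24 without a filter, −0.0809 with DESeq2, −0.0810 with its size factors, −0.0820 with library size, −0.00601 with only the 2 stages, −0.0177 with the upper quartile and −0.17 without chi-miR-148a-3p (−0.15 to 0.0848). The main values of chi-miR-30b-3p, chi-miR-30c-5p, chi-miR-30d-3p and chi-miR-30e-3p in DP vs. LG lay above every value without 1 library. The highest such values were 0.15, 0.0848, −0.61 and −0.24. In LL vs. LG the main values of all members lay above theirs. In DP vs. LL, library size only gave 0.14 for chi-miR-30c-3p (−0.56 to 0.0204 without 1 library), 0.16 for chi-miR-30c-5p and 0.19 for chi-miR-30e-3p. In LL vs. LG, chi-miR-30c-3p gave −0.10 with at least 10 counts, −0.16 without a filter, −0.0292 with DESeq2, −0.0301 with its size factors, −0.42 with library size, −0.0772 with only the 2 stages and −0.0679 without chi-miR-148a-3p (−0.13 to 0.0894). In that comparison chi-miR-30e-3p gave −0.18, −0.24, −0.11, −0.11, −0.51, −0.16 and −0.15 under the same settings and −0.0678 with the upper quartile (−0.16 to 0.00384). Library size only gave −0.24 for chi-miR-30c-5p (−0.0105 to 0.27 without 1 library) and −0.16 for chi-miR-30d-3p, and limma-voom gave 0.00439 for chi-miR-30e-5p. With the replicate block the members called were 1, 2 and 0 and all DE-miRNAs 222, 170 and 88, against 219, 186 and 89 without it. The numbers did not pair the goats in every comparison (correlations of deviations 0.0601 to 0.0845 for DP and LG, 0.00354 to 0.214 for DP and LL and −0.101 to 0.192 for LL and LG), and 6 of 6, 4 of 6 and 2 of 6 libraries correlated best with their own number, which is a hint from the data and not the design. Over all miRNAs, scaling by library size moved the DE-miRNAs higher and lower from 105 and 81 to 165 and 59 in DP vs. LL and from 62 and 27 to 30 and 90 in LL vs. LG, and DE-miRNAs in LL vs. LG ranged from 33 to 125 without 1 library and were 144 with only the 2 stages compared.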
